A study of Mus musculus with 6 samples.

Results

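The 9 genes described here, Aqp1, Aqp3, Slc14a1, Scnn1a, Scnn1b, Atp1b1, Fxyd3, Fxyd4 and Slc16a12, encode proteins that carry water, urea, sodium, potassium or small organic solutes across cell membranes, or subunits and regulators of such proteins. They were chosen by name, with earlier results of these data known. Their rows were found by Ensembl identifier in 6 single-cell tables of the mouse bladder mucosa, and all 9 were listed in every table. They are 9 of the 14342 genes used, which are the genes common to the 6 tables without 13 mitochondrial and 95 ribosomal protein genes. Each table gives the number of unique molecular identifiers (UMIs, one per captured mRNA molecule) for each gene and cell.

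The urothelium separates urine from blood and has to hold steep gradients of water, urea and ions. Its basal cells sit on the basement membrane, intermediate cells lie above them, and large superficial (umbrella) cells face the urine. Aquaporins let water through the membrane, urea transporters let urea follow its gradient, the epithelial sodium channel takes up sodium from the lumen side of many epithelia, and the Na,K-ATPase drives sodium out of and potassium into the cell, with small FXYD proteins setting its activity.

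Wild type C57BL/6 mice of 8 weeks were used throughout, and the mucosal layer was peeled from the bladder and dissociated with collagenase. Healthy mice were compared with mice taken 48 h after cyclophosphamide (CPP), a chemotherapy drug whose breakdown products injure the urothelium (acute). They were also compared with mice given 4 rounds of CPP and taken at day 11 (chronic). By the study's methods, the chronic mice too were taken 48 h after their last injection. Each condition has 2 libraries, here called by condition and replicate number (healthy 1, healthy 2 and so on), described by the study as biological replicates from several animals of both sexes per condition. The labels do not tie libraries to animals. A p-value below measures the spread between these libraries or, where the library is a block, how differences within a library vary from library to library.

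The tables held 5348 to 15062 cell barcodes and 54604109 to 111985678 UMIs per library, with a median of 5530 to 9138 UMIs per barcode over all genes. After quality filters and removal of likely doublets, 49884 cells remained in classes set by marker genes, of which 37266 were urothelial-like, 10660 mesenchymal-like and 492 endothelial-like. Pairs of libraries shared 36 to 208 barcodes. Non-cycling urothelial cells were divided into basal-like, intermediate-like and superficial-like cells, and mesenchymal cells into Cd34 and Pi16 positive fibroblasts and Acta2, Car3 and Cxcl14 positive myofibroblasts, and these names are used below. The basal class is a range of a basal against luminal marker score, and 1705 cells (5.03% of basal and intermediate cells) lay within 0.1 SD of its boundary. The 9 genes were kept out of the clustering and of the class calls. The sums below use classes with 20 or more cells in a library. A level below is in CPM, the gene's UMIs per 1000000 UMIs of that class in that library, and since reads come from the 3′ end of each mRNA, levels are compared between cells and libraries and not between genes. Some levels divide healthy 1, acute 1 and chronic 2 from the other 3 libraries, and so does the median over all barcodes and genes (8665 to 9138 against 5530 to 7237 UMIs). The non-cycling urothelial cells alone are not divided in that way. Over the genes used their median was 5512 UMIs in healthy 1, 4522 in healthy 2, 4869 in acute 1, 5829 in acute 2, 3992 in chronic 1 and 4926 in chronic 2, with acute 2 the deepest. Libraries also resembled each other across conditions: over genes, the urothelial sums of healthy 1 and acute 1 correlated at 0.982, those of acute 1 and chronic 2 at 0.978 and those of healthy 2 and chronic 1 at 0.977, beside 0.971 for both healthy, 0.955 for both acute and 0.966 for both chronic libraries. The study's methods mention batches of sample handling and sequencing. Which library belonged to which batch is not given in the sources used here, so no fit holds a batch term, and a batch cannot be told apart from the differences between libraries or conditions.

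Across 13 classes of cells the 9 genes, Scnn1a apart, fell into 4 patterns. Aqp3, Fxyd4, Scnn1b and Atp1b1 had their highest mean in basal cells, Fxyd3 and Slc14a1 were high in all 3 urothelial layers, Slc16a12 was high in superficial cells, and Aqp1 was high in endothelial cells. Scnn1a, the alpha subunit of the epithelial sodium channel, was close to the limit of detection, with 1.94 to 7.25 CPM in the 3 urothelial layers, and its 3 layers overlapped.

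**Figure D1:**
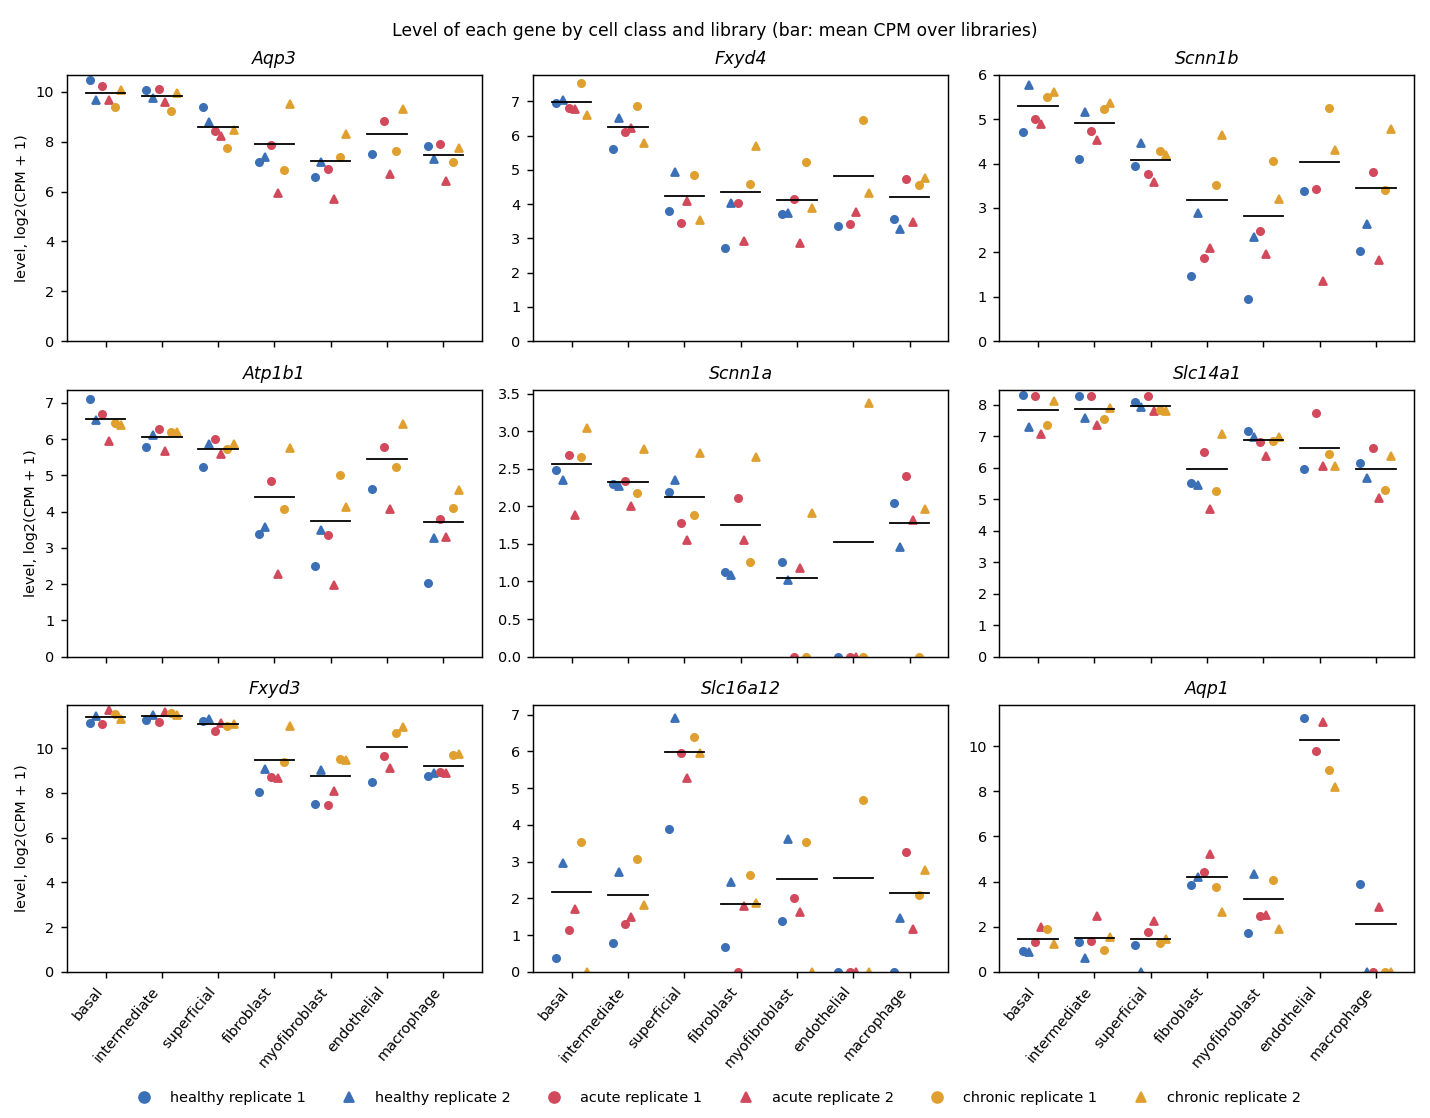
Level of each of the 9 genes (vertical axes, log2 of CPM + 1) in 7 cell classes (horizontal axes), with 1 symbol per library, coloured by condition, and a bar at the mean CPM over libraries. Aqp1 stands at 293 to 2440.0 CPM in endothelial cells and at 36.4 CPM or less in the other classes drawn, while Aqp3, Fxyd4, Scnn1b and Atp1b1 step down from basal to superficial cells.

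The 9 genes lie on 6 chromosomes in the mouse GRCm38 annotation. Aqp3 (ENSMUSG00000028435) is at chr4:41092722-41098183 on the minus strand, Aqp1 (ENSMUSG00000004655) at chr6:55336432-55348555 on the plus strand and Atp1b1 (ENSMUSG00000026576) at chr1:164437109-164458355 on the minus strand. Fxyd4 (ENSMUSG00000004988) is at chr6:117933559-117937692 on the minus strand, Scnn1a (ENSMUSG00000030340) at chr6:125320659-125344943 on the plus strand, Fxyd3 (ENSMUSG00000057092) at chr7:31068172-31076704 on the minus strand and Scnn1b (ENSMUSG00000030873) at chr7:121865038-121918514 on the plus strand. Slc16a12 (ENSMUSG00000009378) is at chr19:34668403-34747289 on the minus strand, and Slc14a1 is ENSMUSG00000059336. All are protein-coding.

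The promoters of 3 genes that step down together from basal to superficial cells, Aqp3, Fxyd4 and Scnn1b, and that of Slc16a12, which does the opposite, are shown so that their letters can be compared. They run from 250 bases before to 50 bases after the RefSeq start (GRCm38.p6), 5′ to 3′ on the gene's own strand. Capitals mark the matches to 5 motifs searched on both strands.
Aqp3, chr4:41098134-41098433, minus strand: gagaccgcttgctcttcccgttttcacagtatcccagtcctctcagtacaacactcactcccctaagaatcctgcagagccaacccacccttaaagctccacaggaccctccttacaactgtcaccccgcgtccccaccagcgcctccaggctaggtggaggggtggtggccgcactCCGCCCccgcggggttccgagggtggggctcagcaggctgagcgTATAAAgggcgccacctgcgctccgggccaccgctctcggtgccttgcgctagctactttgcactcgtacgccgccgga
Fxyd4, chr6:117937286-117937585, minus strand: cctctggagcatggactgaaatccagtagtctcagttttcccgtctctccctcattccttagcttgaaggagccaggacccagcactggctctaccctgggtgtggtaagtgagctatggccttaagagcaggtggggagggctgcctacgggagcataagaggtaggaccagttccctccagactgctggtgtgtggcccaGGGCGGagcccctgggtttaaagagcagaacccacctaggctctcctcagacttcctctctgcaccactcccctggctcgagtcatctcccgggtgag
Scnn1b, chr7:121864788-121865087, plus strand: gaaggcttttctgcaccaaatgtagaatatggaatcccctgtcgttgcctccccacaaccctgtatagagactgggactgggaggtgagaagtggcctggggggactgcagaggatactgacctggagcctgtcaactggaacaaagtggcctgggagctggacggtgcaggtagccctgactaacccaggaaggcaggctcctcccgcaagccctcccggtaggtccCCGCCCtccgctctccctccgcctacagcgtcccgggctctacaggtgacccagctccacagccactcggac
Slc16a12, chr19:34747279-34747578, minus strand: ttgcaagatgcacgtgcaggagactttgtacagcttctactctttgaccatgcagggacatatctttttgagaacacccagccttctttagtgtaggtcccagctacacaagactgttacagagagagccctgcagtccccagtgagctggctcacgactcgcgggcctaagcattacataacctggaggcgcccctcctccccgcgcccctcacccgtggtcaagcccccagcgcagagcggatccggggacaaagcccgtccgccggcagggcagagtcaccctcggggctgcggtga

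The Aqp3 promoter held a TATA box (TATAAA) 29 bases before the start and a GC box (GGGCGG, here on the opposite strand) 73 bases before it. The Fxyd4 promoter held a GC box 48 bases before the start, and the Scnn1b promoter held one on the opposite strand 22 bases before it. Of 32851 promoters in the same table, 13.6% held the TATA letters and 35.7% the GC box letters. Neither was found in the Slc16a12 or Fxyd3 windows, while the GC box was also found in the Aqp1 and Atp1b1 windows. The GATA letters AGATAA (11.2% of promoters), the forkhead letters TGTTTAC (3.65%) and the Grainyhead-like letters AACCGGTT (0.146%) were in none of the 7 windows examined, and Slc14a1 and Scnn1a were named only. A match is a stretch of letters and not a measured binding site.

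To ask how transport genes change from the basement membrane to the lumen, UMIs were summed per library and layer and tested by quasi-likelihood in edgeR with the library as a block. Fxyd4, Scnn1b, Atp1b1 and Aqp3 fell towards the lumen, Slc16a12 rose, and Fxyd3 and Slc14a1 moved by at most 0.35 on the log2 scale between layers. From basal to intermediate cells 3 of the 8 genes with enough counts were called at an adjusted p of 0.05, against 40.3% of all genes tested. From intermediate to superficial cells 5 of 8 were called against 56.7%, and from basal to superficial cells 6 of 8 against 64.9%. Those shares are near the background, so what is described here is each gene's own direction and size. Aqp1 had too few UMIs to be tested in this comparison of layers.

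Fxyd4, the FXYD protein known as an activator of the Na,K-ATPase in the kidney collecting duct, stepped down most among the 4. In basal cells its level was 123 CPM in healthy 1, 131 in healthy 2, 111 in acute 1, 109.6 in acute 2, 185 in chronic 1 and 96.5 in chronic 2. In intermediate cells the same libraries held 48.3, 90.8, 68.3, 73.6, 115 and 54.6 CPM, and in superficial cells 13.0, 29.9, 9.88, 15.9, 27.7 and 10.5 CPM. Every library fell at both steps, and the superficial values lay below all intermediate ones. The level fell by 0.71 ± 0.11 (SE, log2) from basal to intermediate cells (adjusted p = 1.3e-05) and by 2.06 ± 0.13 from intermediate to superficial cells (adjusted p = 1.4e-11).

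Aqp3 encodes an aquaglyceroporin that passes water and glycerol. Its level in basal cells was 1404 CPM in healthy 1, 824 in healthy 2, 1201 in acute 1, 826 in acute 2, 678 in chronic 1 and 1082 in chronic 2. In intermediate cells these libraries held 1080.1, 868, 1106, 768, 603 and 984 CPM, and in superficial cells 673, 438, 347, 303, 216 and 349.8 CPM. Basal and intermediate levels overlapped, with a difference of -0.07 ± 0.10 (adjusted p = 0.59), whereas the superficial level was the lowest of the 3 layers in each of the 6 libraries. The fall from intermediate to superficial cells was by 1.19 ± 0.10 on the log2 scale (adjusted p = 2.5e-09). Between libraries, healthy 1, acute 1 and chronic 2 held the 3 highest basal levels.

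The beta subunit of the epithelial sodium channel, Scnn1b, was at 25.3, 53.3, 31.1, 28.5, 44.0 and 47.6 CPM in basal cells of healthy 1, healthy 2, acute 1, acute 2, chronic 1 and chronic 2. Intermediate cells held 16.1, 34.7, 25.6, 22.2, 36.4 and 39.9 CPM and superficial cells 14.5, 20.9, 12.7, 11.0, 18.5 and 17.2 CPM in the same order. Libraries differed from each other by as much as layers did, but within each library the level fell at both steps. It fell by 0.36 ± 0.09 (adjusted p = 0.0037) and then by 0.81 ± 0.10 on the log2 scale (adjusted p = 4e-07). With layers set by sub-cluster majority, which left 32 to 84 basal cells in each acute and chronic library and 7 and 1 in the healthy ones, the difference of intermediate minus basal cells was 0.70 (adjusted p = 0.23). Basal cells then came from a sub-cluster led by Ube2c and Hmgb2, in which 86% of cells were cycling and 67.7% scored basal. The sub-cluster led by Klf4 and Trf, at 48.4% basal, counted as intermediate under that rule.

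Atp1b1, the beta subunit that brings the Na,K-ATPase to the plasma membrane, was at 137, 91.2, 103, 60.3, 86.7 and 82.9 CPM in basal cells in the same order of libraries. It was at 54.2, 68.6, 77.3, 50.5, 72.3 and 72.5 CPM in intermediate cells and at 36.9, 57.8, 63.2, 47.0, 52.5 and 56.9 CPM in superficial cells. All 6 libraries fell at both steps, most of all healthy 1. The step from basal to intermediate cells passed the test (fell by 0.45 ± 0.13, adjusted p = 0.0065), the next step did not (-0.24 ± 0.13, adjusted p = 0.11), and the difference between the outer layers did (fell by 0.69 ± 0.14, adjusted p = 0.00014). Without the library as a block, none of the 3 basal to intermediate calls passed the threshold (adjusted p = 0.11 for Fxyd4, 0.40 for Scnn1b and 0.068 for Atp1b1). With layers set by sub-cluster majority, the difference of intermediate minus basal cells was for Atp1b1 0.91 (adjusted p = 0.0066) and that of superficial minus basal cells 0.57 (adjusted p = 0.067). Basal cells were there again those of the mostly cycling sub-cluster led by Ube2c and Hmgb2.

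**Figure D2:**
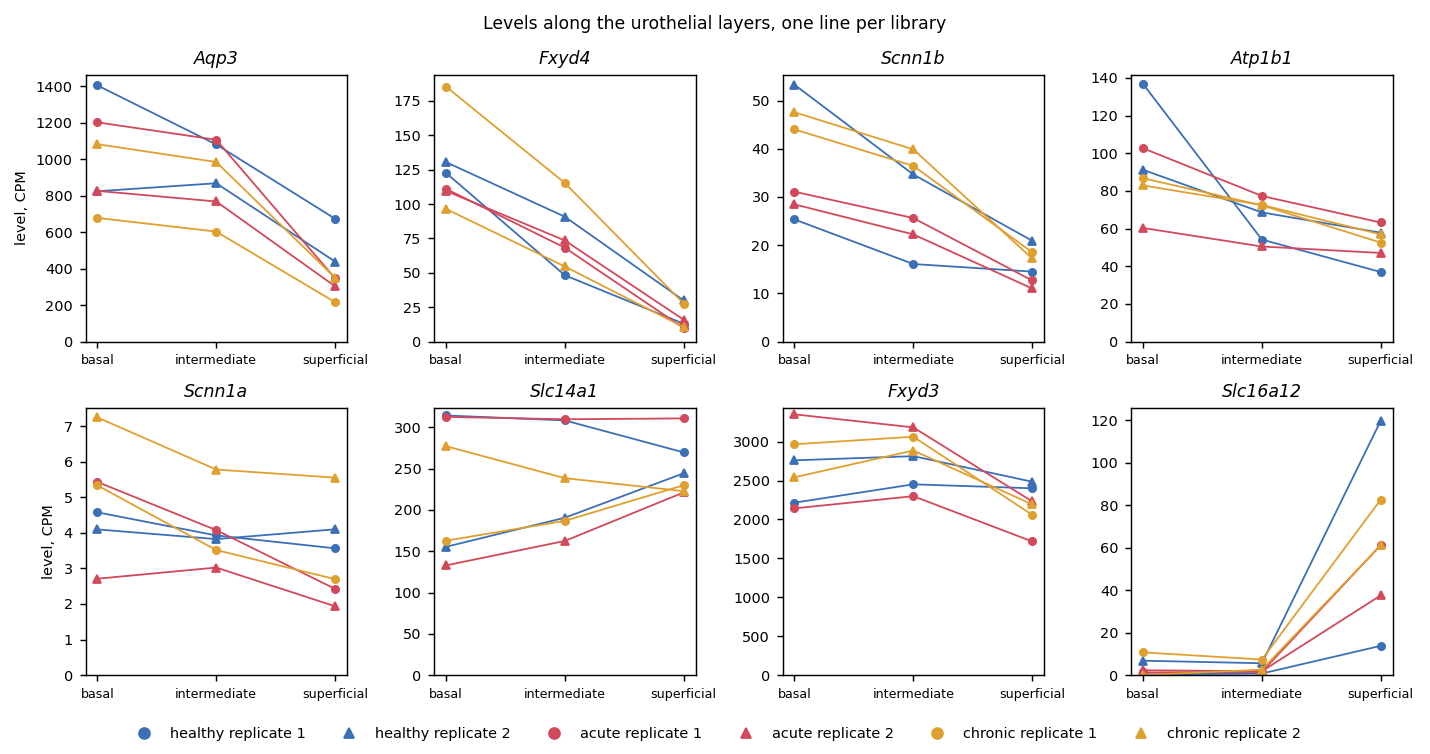
Level in CPM (vertical axes, from 0) of 8 genes in basal, intermediate and superficial cells (horizontal axes), with 1 line per library coloured by condition. The lines of Fxyd4, Scnn1b and Atp1b1 descend in all 6 libraries, those of Slc16a12 rise to 13.8 to 119.8 CPM in superficial cells, and those of Slc14a1 converge to 221 to 311 CPM.

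Slc16a12, a carrier of the monocarboxylate transporter family known to move creatine, rose steeply in superficial cells. Its superficial level was 13.8 CPM in healthy 1, 119.8 in healthy 2, 61.2 in acute 1, 37.5 in acute 2, 82.6 in chronic 1 and 61.1 in chronic 2. Intermediate cells held 0.718, 5.56, 1.46, 1.79, 7.33 and 2.53 CPM and basal cells 0.305, 6.76, 1.21, 2.26, 10.7 and 0 CPM, where 0 UMIs allow up to 1.36 CPM. No superficial value fell into the range of either lower layer. The rise from intermediate to superficial cells was 4.37 ± 0.17 on the log2 scale (adjusted p = 2.9e-14), while basal and intermediate cells differed by 0.16 ± 0.38 (adjusted p = 0.77). The 2 healthy libraries were the lowest and the highest of the 6 in superficial cells.

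Slc14a1 encodes urea transporter B, known from the urothelium and from red blood cells. Basal cells held 314, 155, 313, 133, 163 and 277 CPM in healthy 1, healthy 2, acute 1, acute 2, chronic 1 and chronic 2, intermediate cells 308, 191, 309.8, 162, 187 and 239 CPM, and superficial cells 269.7, 244, 311, 221, 230.0 and 223 CPM. The libraries separated in basal cells, where healthy 1, acute 1 and chronic 2 held 277 to 314 CPM and the other 3 held 133 to 163 CPM, and came together in superficial cells. The superficial level was above the basal one in 3 of 6 libraries (healthy 2, acute 2 and chronic 1) and below it in the other 3. The fit gave a rise of 0.35 ± 0.10 (adjusted p = 0.0051) from basal to superficial cells. That call was lost without acute 2 (0.24, adjusted p = 0.051), without scaling factors between libraries (0.21, adjusted p = 0.085) and without the library block (0.30, adjusted p = 0.23).

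Fxyd3, which binds the Na,K-ATPase and is known from many epithelia, held 2143 to 3351 CPM in basal, 2299 to 3183 in intermediate and 1718 to 2485 in superficial cells. Its superficial level was below the intermediate one in 6 of 6 libraries, and it fell by 0.26 ± 0.08 on the log2 scale (adjusted p = 0.0065). Thinned to 2000 UMIs per cell, 99.2% of intermediate cells had at least 1 Fxyd3 UMI. Macrophages had 47.6% on average after the same thinning and 25.9% to 62.3% over the 6 libraries. Their median was 2198.5 to 4113 UMIs per cell in the 6 libraries, beside 3876 to 5845 in intermediate cells. A share is therefore given beside that of macrophages, and the part of urothelial RNA in the macrophage shares was not tested. For Aqp3 the shares were 83.5% in basal cells, 81.1% in intermediate cells, 51.2% in superficial cells and 11.2% to 27.5% over the 6 libraries in macrophages, and for Slc16a12 11.1% in superficial cells and 0.396% in macrophages, means over the libraries.

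Of other water, urea and ion transport genes, on lists set by gene family, 57 could be tested across layers. From basal to superficial cells 17 rose and 23 fell, with a median log2 difference of -0.07, where 31.9% of all genes tested rose and 33% fell, so that these shares are near the background, and the families below hold too few genes to be read against it. Both other aquaporins tested fell. They were chosen after their values were seen: Aqp9, a channel for water, glycerol and urea, fell by 3.85 ± 0.39 (adjusted p = 1.6e-08) and Aqp11, an intracellular aquaporin, fell by 0.55 ± 0.13 (adjusted p = 0.001). The Na,K-ATPase beta subunit Atp1b3 rose by 0.33 ± 0.06 on the log2 scale (adjusted p = 0.00012), so the beta subunits Atp1b1 and Atp1b3 went opposite ways. Among 4 other FXYD genes 2 rose and 0 fell, and the 2, also chosen after their values were seen, were Fxyd2 (1.40 ± 0.17) and Fxyd6 (0.64 ± 0.18).

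Among 9 other genes of the sodium channel list 2 rose and 3 fell. Prss8, a protease that activates the channel, rose by 1.16 ± 0.11 (adjusted p = 8.6e-09). Nr3c1, the glucocorticoid receptor, fell by 2.08 ± 0.11 (adjusted p = 6e-13). The gamma subunit Scnn1g, chosen after its values were seen, differed by 0.08 ± 0.10 (adjusted p = 0.73), beside the fall of 1.16 ± 0.11 of the beta subunit (adjusted p = 8.8e-09). From intermediate to superficial cells Sgk1, a kinase that raises channel number, fell by 1.14 ± 0.08 (adjusted p = 2e-10).

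In the potassium channel list 2 rose and 2 fell of 5, with Kcnn4, a calcium-activated channel, down by 4.10 ± 0.15 (adjusted p = 1.7e-15) and Kcnk5, a pH-sensitive leak channel, up by 1.37 ± 0.15 (adjusted p = 5.8e-08). Among 12 bicarbonate, proton and chloride carriers 5 rose and 5 fell: Slc4a4, a sodium bicarbonate cotransporter, rose by 2.53 ± 0.17 and Slc4a7, another one, fell by 2.41 ± 0.16. In the chloride channel list 1 rose and 4 fell of 10, Clic4 by 2.18 ± 0.12 (log2, adjusted p = 4.7e-13). The calcium-permeable channel Trpv4 fell by 1.24 ± 0.11 among 5 stretch and TRP channels, of which 1 rose and 3 fell. In the monocarboxylate list 3 rose and 3 fell of 8, and Slc16a7 rose by 0.40 ± 0.09, a small change beside that of Slc16a12.

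Endothelial cells, fibroblasts and myofibroblasts were compared with urothelial cells and with each other. In fibroblasts 8 of the 9 genes fell against urothelial cells and Aqp1 rose. Of the 9 genes, 8 were called between endothelial and urothelial cells (1 higher and 7 lower), where 19.4% of all genes tested were called higher, 24.2% lower and 43.6% in either direction. Between fibroblasts and urothelial cells 9 were called (1 higher and 8 lower), against 34.2% higher, 35.1% lower and 69.3% in either direction. Between myofibroblasts and urothelial cells 8 were called, all lower, against 34.1% lower and 67.4% in either direction. Between fibroblasts and myofibroblasts 1 was called higher and 1 lower, against 6.13% higher, 8.39% lower and 14.5% in either direction, and 1 was called between endothelial cells and fibroblasts, higher, against 12.3% higher and 30.3% in either direction. The share of lower calls among the 9 was above the background in all 3 comparisons with urothelial cells, and the list had been drawn up with results of these data known. Without acute 2, which held 326 of the endothelial cells, 5 were called between endothelial and urothelial cells, and the share of all genes called in that fit is not given here. Endothelial cells of healthy 2 numbered 15, below the minimum of 20 for a sum, and stayed out of these fits.

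Aqp1, the water channel of red blood cells and of the endothelium of many vessels, was by far the most unequal of the 9. Its endothelial level was 2440.0 CPM in healthy 1 (51 cells, 520 UMIs), 869 in acute 1 (47 cells), 2120 in acute 2 (326 cells), 492 in chronic 1 (28 cells) and 293 in chronic 2 (25 cells). Urothelial cells of the 6 libraries held 0.52 to 4.22 CPM and fibroblasts 5.30 to 36.4 CPM. The endothelial range did not touch that of any other class, and the difference was 9.06 ± 0.51 on the log2 scale from urothelial cells (adjusted p = 6.3e-13) and 5.82 ± 0.48 from fibroblasts (adjusted p = 1.7e-09). The class was named from 8 markers (Pecam1, Cdh5, Kdr, Egfl7, Tie1, Plvap, Emcn and Eng). Each was detected in every library with 20 or more of its cells, which is no separate test of the name. Red cells had been depleted from the suspensions. UMIs of 3 red cell markers summed to 6752 CPM in the endothelial cells of healthy 1 and to 0 to 24.6 CPM in the other 4 libraries with 20 or more cells. The part of red cell RNA in these Aqp1 levels was not tested.

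Fibroblasts held more Aqp1 than urothelial cells (rose by 3.24 ± 0.47, adjusted p = 1.6e-06) and more than myofibroblasts, which held 2.31 to 19.4 CPM (1.93 ± 0.62, adjusted p = 0.036). Fibroblasts were the higher of the 2 in 4 of 6 libraries, the exceptions being healthy 2 (17.6 against 19.4 CPM) and chronic 1 (12.5 against 15.7 CPM). Both levels are small beside the endothelium: in fibroblasts Aqp1 was 0.54% to 2.54% of its endothelial level in the same library, where the sum of the 8 endothelial markers was 1.476% to 2.59% of its own. The part of endothelial RNA in these fibroblast values was not tested. The call between fibroblasts and myofibroblasts was lost without healthy 1 (1.64, adjusted p = 0.13), acute 1 (1.88, adjusted p = 0.10), acute 2 (1.25, adjusted p = 0.34) or chronic 1 (1.96, adjusted p = 0.059), and under DESeq2 (1.15, adjusted p = 0.27).

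Besides Aqp1, Slc14a1 was called between the stromal types. Myofibroblasts held 144 CPM in healthy 1, 126 in healthy 2, 113 in acute 1, 81.2 in acute 2, 115 in chronic 1 and 126 in chronic 2. Fibroblasts of the same libraries held 44.8, 42.7, 89.6, 24.8, 37.5 and 133 CPM. Myofibroblasts were higher in 5 of 6 libraries, the exception being chronic 2, and fibroblasts lay lower by 1.23 ± 0.23 on the log2 scale (adjusted p = 0.00044). Against urothelial cells Slc14a1 fell by 0.99 ± 0.21 in myofibroblasts (adjusted p = 0.00027), the smallest difference of any called member in that comparison, and by 2.22 ± 0.22 in fibroblasts (adjusted p = 5e-09).

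To show how much urothelial RNA of any kind these classes held, each gene was set beside 7 urothelial markers (Cdh1, Epcam, Gata3, Krt7, Krt19, Upk1b and Upk3b), all as a percentage of their level in urothelial cells of the same library. In myofibroblasts the 7 markers stood at 6.50% to 39.5% over the 6 libraries. Slc14a1 stood at 36.5% to 66.5% there and lay above all 7 markers in 6 of 6 libraries. Slc16a12, at 0 to 11.3 CPM, lay above them in 5 of 6 myofibroblast libraries and Scnn1a, at 0 to 2.75 CPM, in 4 of 6, and Scnn1a did so in 6 of 6 fibroblast and 5 of 6 macrophage libraries, all at few UMIs. Fxyd3 stood at 7.48% to 25.8% and lay within the markers' range in 6 of 6, and Aqp3, at 7.50% to 36.9%, lay within it in 5 of 6. In fibroblasts Slc14a1 stood above all 7 markers in 2 of 6 libraries, fewer than Aqp3 and Slc16a12 (3 each) or Aqp1 (6). In macrophages Slc14a1, at 18.6% to 34.3%, did so in 1 of 6. These are descriptions of levels with no test.

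**Figure D3:**
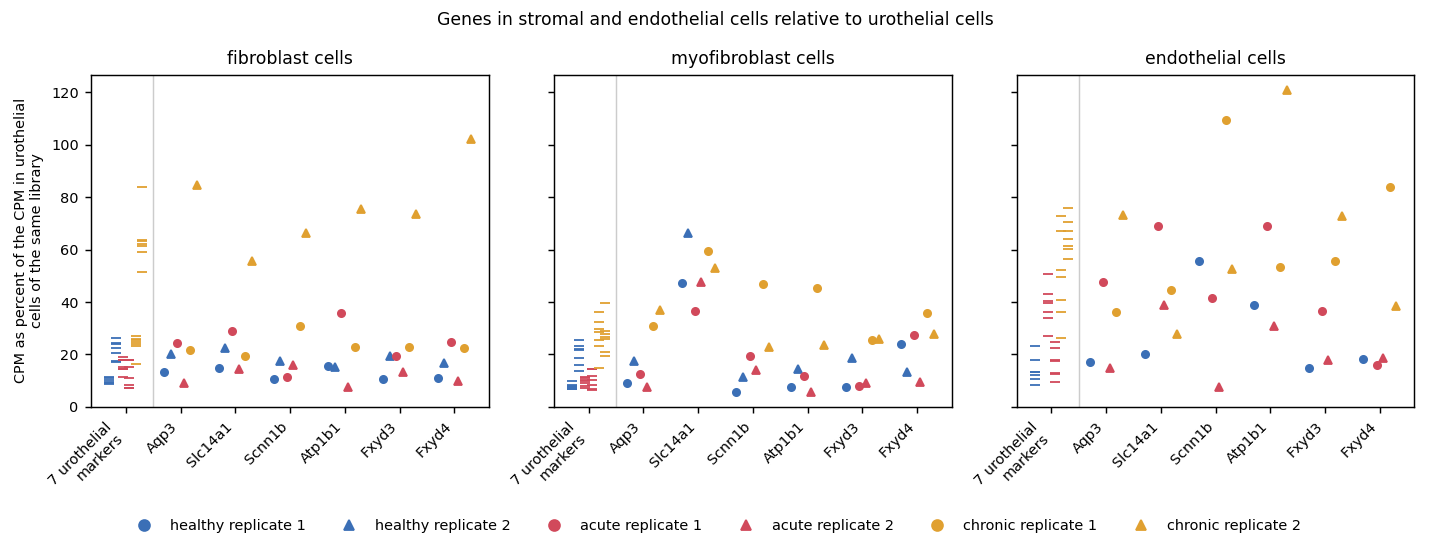
Level of 6 genes in fibroblasts, myofibroblasts and endothelial cells (panels) as a percentage of the CPM in urothelial cells of the same library (vertical axis, linear), with 1 symbol per library and short bars at the left for the 7 urothelial markers. In myofibroblasts the Slc14a1 symbols lie at 36.5% to 66.5%, above the bars of their own library, and in fibroblasts of chronic 2 most genes and markers lie high together.

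The other urothelial genes were lower in both stromal types. Aqp3 was at 61.2 to 732 CPM in fibroblasts and at 51.4 to 319 CPM in myofibroblasts, with differences from urothelial cells of -2.34 ± 0.27 (adjusted p = 4.1e-08) and -2.82 ± 0.28 (adjusted p = 4e-09). Across Atp1b1, Fxyd3, Fxyd4, Scnn1b, Scnn1a and Slc16a12 the differences ran from -1.10 to -2.42 in fibroblasts and from -1.44 to -3.21 in myofibroblasts, and each passed the test. These comparisons take the urothelial layers together. By layer, mean Slc16a12 was 3.53 CPM in basal and 3.23 in intermediate cells, beside 4.75 in myofibroblasts and 2.57 in fibroblasts. Mean Fxyd4 was 17.8 CPM in superficial cells, beside 19.4 in fibroblasts and 16.3 in myofibroblasts. In endothelial cells Atp1b1 fell least of the genes called lower, by 1.18 ± 0.37 (adjusted p = 0.013), with 23.5, 53.7, 15.7, 36.9 and 85.0 CPM in healthy 1, acute 1, acute 2, chronic 1 and chronic 2. These levels rest on few UMIs: 5, 11, 10, 3 and 9 in the same order. Atp1b1 stood above all 7 urothelial markers in 4 of those 5 libraries, and the call was lost without healthy 1 (-1.02, adjusted p = 0.086) or acute 2 (-0.93, adjusted p = 0.067).

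Across the same types the other members of the families were divided between urothelium and stroma. The median difference of all genes was -0.18 between endothelial and urothelial cells and nearer to 0 between either stromal type and urothelial cells. Of 64 other listed genes tested, 25 were higher and 33 lower in fibroblasts than in urothelial cells, 24 and 32 in myofibroblasts, and 17 and 18 in endothelial cells. That is 90.6%, 87.5% and 54.7% called in either direction, against 69.3%, 67.4% and 43.6% of all genes tested, and the lists had been drawn up with results of these data known. Of the FXYD family, Fxyd1, known as phospholemman, was higher by 5.95 ± 0.29 in fibroblasts and by 5.65 ± 0.29 in myofibroblasts (adjusted p = 1.2e-14 and 2.5e-14), and Fxyd5 was higher by 5.34 ± 0.34 in endothelial cells (adjusted p = 5.2e-12), where Fxyd3 and Fxyd4 were lower. Of 5 other FXYD genes 4 were higher and 0 lower in endothelial cells, and 4 were higher and 1 lower in each of the stromal types. Of all genes tested 19.4% were higher in endothelial cells, 34.2% in fibroblasts and 33.4% in myofibroblasts, and nothing is read from so few genes.

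Between fibroblasts and myofibroblasts 1 of 6 potassium channels was called: Kcnk2, a stretch-sensitive leak channel, which was lower in fibroblasts by 3.43 ± 0.31 (adjusted p = 1.6e-08). In that comparison 3 of the 64 other listed genes were higher and 10 lower, and 1730 of all 11918 genes tested were called. Against urothelial cells, in the sodium channel list Prss8 was lower by 2.68 ± 0.25 in fibroblasts, whereas the glucocorticoid-induced Tsc22d3 was higher by 2.44 ± 0.23 there and by 3.16 ± 0.25 in myofibroblasts. Clic4 was higher by 3.56 ± 0.22 in endothelial cells (adjusted p = 4.1e-12) and Slc12a4, a potassium chloride cotransporter, by 3.09 ± 0.19 in myofibroblasts (adjusted p = 6.8e-13). Aqp11, the only other aquaporin tested here, was chosen after its values were seen: it was higher in endothelial cells by 1.03 ± 0.40 (adjusted p = 0.038) and lower in fibroblasts by 1.99 ± 0.30 (adjusted p = 3.3e-06).

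The genes most like each member over the 13 class means are a description, since classes share libraries and depth. Aqp1 was most like Jam2 (Pearson r = 0.98) and Ecscr (0.97), and Aqp3 like Sdc1 and Lmo1 (both 0.98). Slc14a1 was most like Paqr5 and Pcyox1 (both 0.96), Fxyd4 like Gm12866 (0.96) and Igfbp2 (0.95), and Scnn1b like Rapgefl1 and Lypd3 (both 0.96). Atp1b1 was most like Clcn3 (0.98) and Rasef (0.97), Fxyd3 like Serinc2 (0.99), Slc16a12 like Fabp4 (0.97) and Hsbp1l1 (0.95), and Scnn1a like Prkar2b (0.95) and Fgf1 (0.92).

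To ask whether CPP changed these genes, acute and chronic libraries were compared with healthy ones within each class. The lowest unadjusted p was that of Aqp1 in chronic endothelial cells, and in the urothelium that of Aqp3 in chronic superficial cells, but no member had an adjusted p below 0.05 (edgeR, Benjamini-Hochberg over all genes) in any of 15 comparisons over 7 classes. In 10 of the 15 no gene at all was called (0%), and the most called in one was 20, for chronic endothelial cells (0.366% of genes tested). Of 121 member tests 9 had an unadjusted p below 0.05 (7.44%), against 4.74% of the tests of all genes. Since the members had been chosen with results of these data known, nothing is read from that excess. DESeq2 called 2 members, both in chronic endothelial cells, and 6 to 89 of all genes per comparison. With 2 libraries a group, an exact permutation test cannot go below p = 0.333.

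In superficial cells Aqp3 was at 673 and 438 CPM in the healthy libraries, 347 and 303 in the acute and 216 and 349.8 in the chronic. Both injured groups lay wholly below the healthy one. The log2 difference was -0.77 ± 0.29 in acute (unadjusted p = 0.026, adjusted p = 0.83, edgeR) and -1.01 ± 0.29 in chronic (unadjusted p = 0.0071, adjusted p = 0.58, edgeR). Among all genes tested in superficial cells, 32.2% (acute) and 36% (chronic) did not overlap between the groups, and of the 9 members 5 (acute) and 4 (chronic) did not. In basal and intermediate cells the Aqp3 difference farthest from 0 was -0.34 ± 0.33, and the groups overlapped. In all non-cycling urothelial cells the groups overlapped, with 1064 and 829 CPM in healthy, 956 and 685 in acute and 541 and 863 in chronic libraries.

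Whether injury acts differently on Aqp3 in different layers was tested as an interaction with the library as a block. The superficial minus basal difference of Aqp3 changed by -0.65 ± 0.16 in acute (adjusted p = 0.080) and by -0.66 ± 0.17 in chronic (adjusted p = 0.10). The superficial minus intermediate difference changed by -0.68 ± 0.16 (adjusted p = 0.087) and by -0.67 ± 0.16 (adjusted p = 0.15). In the order given, 0.689%, 0.481%, 0.315% and 0.0166% of genes were called in these 4 contrasts, and none of the 9. DESeq2 called Aqp3 in 3 of the 4, and edgeR called it in all 4 when cells needed over 1000 genes and under 5% mitochondrial UMIs (adjusted p = 0.0092 to 0.015). In the 2 contrasts of intermediate with basal cells no gene was called (0%). Over all 6 contrasts 15 of 54 member tests had an unadjusted p below 0.05 (27.8%), against 7.83% of the tests of all genes, and the 6 contrasts share libraries and layers. The 9 genes had also been chosen with results of these data known, so nothing is read from that excess.

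Atp1b1 showed the opposite sign, with an acute change of 0.74 ± 0.28 in the superficial minus basal difference (unadjusted p = 0.015, adjusted p = 0.27). It depended on which healthy library was kept: without healthy 1, whose basal Atp1b1 was the highest at 137 CPM, the change was 0.08 (adjusted p = 0.96), and without healthy 2 it was 1.33 (adjusted p = 0.0023), each time with the lone healthy library assumed to vary like the others. Without acute 2, whose basal level was the lowest, it was 0.59 (adjusted p = 0.63), and without acute 1 it was 0.90 (adjusted p = 0.37).

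The other genes showed no difference past the test in the urothelium. In all non-cycling urothelial cells the log2 differences of Slc14a1, Fxyd3, Fxyd4, Scnn1a, Scnn1b and Atp1b1 lay between -0.25 and 0.38 in both comparisons with healthy, with standard errors of 0.22 to 0.41. Scnn1b was at 20.9 and 23.6 CPM in acute and at 33.7 and 35.9 CPM in chronic libraries, and these groups did not overlap (-0.62 ± 0.34, against 29.9% of all genes that did not overlap), while the healthy libraries held 16.8 and 36.4 CPM, below and above both. Slc16a12 in all non-cycling urothelial cells was at 2.20 and 14.3 CPM in healthy, 14.2 and 8.78 in acute and 19.7 and 14.3 in chronic libraries. In superficial cells alone Slc16a12 differed by -0.43 ± 0.71 in acute and 0.08 ± 0.71 in chronic. Aqp1 in urothelial cells was at 1.40 and 0.52 CPM in healthy and at 1.75 and 4.22 in acute libraries (1.69 ± 0.65, unadjusted p = 0.034, edgeR), where the 8 endothelial markers summed to 12.6 and 8.48 CPM in healthy and to 14.2 and 18.7 CPM in acute libraries, and their part in the result was not tested.

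**Figure D4:**
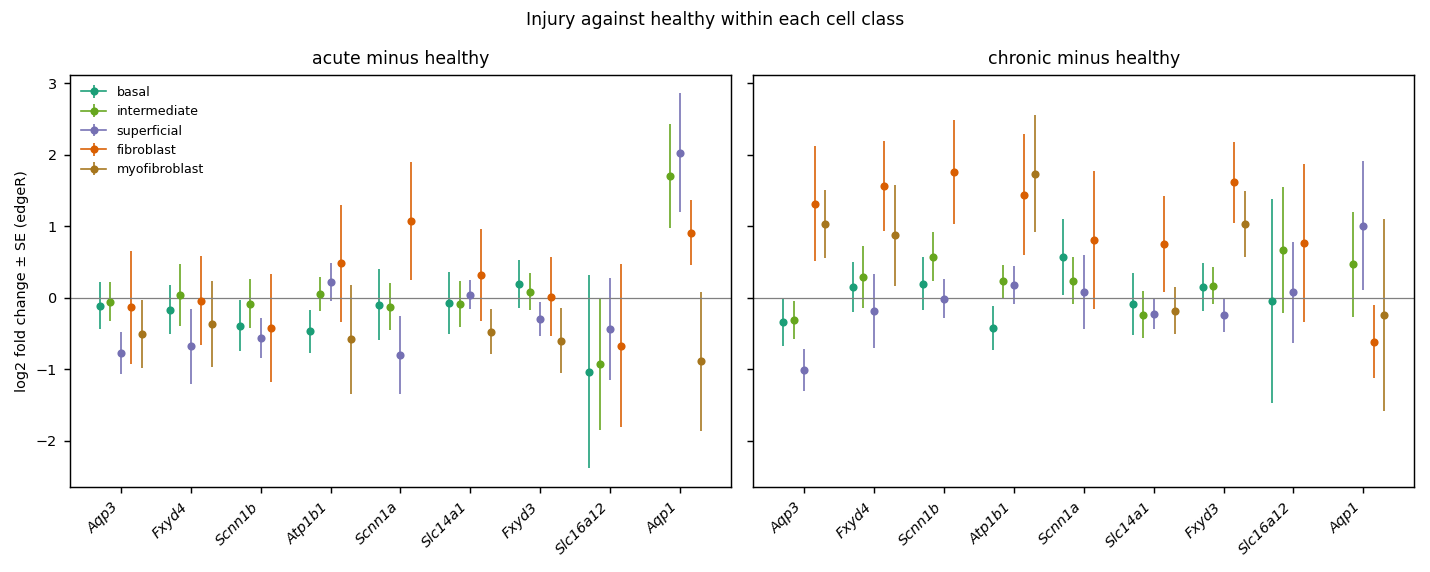
Log2 fold change against healthy (vertical axis, edgeR, bars are ± 1 SE) of the 9 genes in basal, intermediate, superficial, fibroblast and myofibroblast cells, for acute (left) and chronic (right) injury, from 2 libraries a group. Aqp3 in superficial cells lies at -0.77 and -1.01, Aqp1, at most 3.72 CPM in superficial cells, lies at 2.03 there in acute, and the chronic fibroblast values of 5 genes lie at 1.32 to 1.76.

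In the stroma no member passed the test after injury, and the values of several genes of the urothelium are given beside those of urothelial markers. The libraries drew their fibroblasts from sub-clusters in different proportions. The sub-cluster led by Clec3b, Pi16 and Cd34 held 503 and 756 cells of the healthy, 175 and 322 of the acute and 636 and 14 of the chronic libraries (doublets included). The one with the highest urothelial marker score, led by Bglap2, Has1 and Klf4, held 389 and 556, 226 and 156, and 699 and 74 in the same order. A further one, led by Inmt, held 768 cells of acute 2, more than either. Among myofibroblasts the sub-cluster led by Fosb and Il6 was the largest in healthy 1, acute 1 and both chronic libraries, and the one led by Acta2 in healthy 2 and acute 2. The part of these differences in the values below was not tested. Fibroblast levels of Fxyd3 were 260.0 and 542 CPM in healthy, 419 and 401 in acute and 667 and 1999.9 in chronic libraries (1.62 ± 0.56, unadjusted p = 0.020, adjusted p = 0.77). Aqp3 differed by 1.32 ± 0.80, Fxyd4 by 1.57 ± 0.63, Scnn1b by 1.76 ± 0.73 and Atp1b1 by 1.44 ± 0.85 in chronic fibroblasts, none of them past the adjusted threshold. The 7 urothelial markers summed in fibroblasts to 632 and 1639 CPM in healthy, 1079 and 973 in acute and 2443 and 4260 CPM in chronic libraries, with none of the 7 at 0 in any library. In myofibroblasts their sum was 498 and 1547, 654 and 797, and 3004 and 1982 CPM in the same order, and the chronic minus healthy differences were 1.03 ± 0.48 for Aqp3, 1.03 ± 0.46 for Fxyd3 and 1.74 ± 0.82 for Atp1b1 (adjusted p = 0.74 for each, edgeR). For these 3 genes the chronic and healthy myofibroblast libraries did not overlap, as for 35.6% of all genes tested. The part of urothelial RNA in these values was not tested. Slc14a1 in myofibroblasts differed by -0.47 ± 0.31 in acute and -0.18 ± 0.33 in chronic.

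In endothelial cells Aqp1 was lower in the chronic libraries. It was at 492 and 293 CPM there, at 869 and 2120 CPM in acute and at 2440.0 CPM in healthy 1, the single healthy library with 20 cells or more, and the 15 endothelial cells of healthy 2 held 1510 CPM (77 UMIs, exact Poisson 95% interval 1191 to 1887 for counting error). The chronic values lay below all others. The log2 difference from healthy was -2.63 ± 0.59 in chronic (unadjusted p = 0.0004, adjusted p = 0.060, edgeR) and -0.59 ± 0.57 in acute, with 1 healthy library assumed to vary like the others. Whether the chronic difference passed the threshold depended on the setting. It did under DESeq2, and in edgeR without acute 1, without integration of the libraries and without the filter on low counts. It did not with the replicate number as a block. None of these fits measures a spread between healthy libraries.

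The 8 endothelial markers summed to 6025 CPM in healthy 1, 4157 in healthy 2, 3519 in acute 1, 5316 in acute 2, 3249 in chronic 1 and 1634 CPM in chronic 2, and the 7 urothelial markers in the same cells to 882, 4137, 2528, 1284, 5156 and 4731 CPM. Aqp1 as a percentage of the endothelial marker sum was 40.5, 36.3, 24.7, 39.9, 15.2 and 17.9 in the same order, with both chronic libraries lowest. The 3 red cell markers summed to 6752 CPM in healthy 1, the single healthy library of the fit, to 216 CPM in healthy 2, to 0 and 3.14 CPM in acute and to 24.6 and 9.44 CPM in chronic libraries. Aqp1 is also a red cell gene, and the part of red cell RNA in the difference from healthy 1 was not tested. Fxyd3, a gene of the urothelium, was in these cells at 361 CPM in healthy 1, 791 and 545 in acute and 1612 and 1974 CPM in chronic libraries (chronic minus healthy 2.33 ± 0.55, adjusted p = 0.070, edgeR). The 15 cells of healthy 2, which were not in that fit, held 1255 CPM, nearer to the chronic values than to healthy 1. Clic4, 1 of 28 other listed genes tested in chronic endothelial cells, fell by 2.37 ± 0.49. That value too rests on healthy 1 as the single healthy library.

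**Figure D5:**
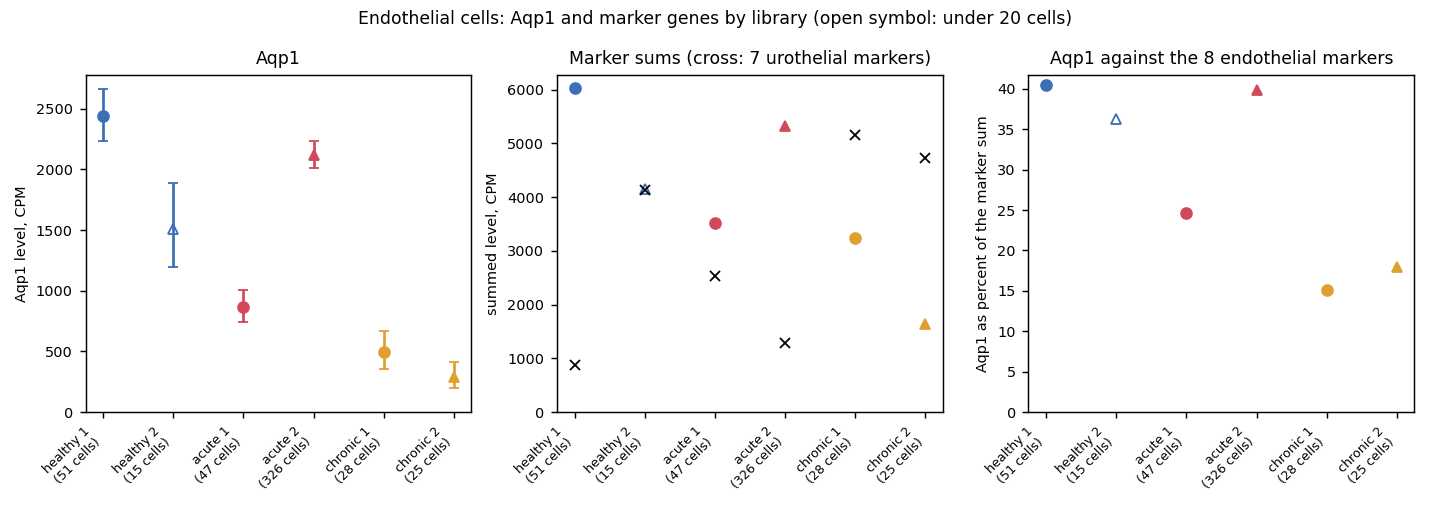
Endothelial cells of the 6 libraries (horizontal axes, with the number of cells): Aqp1 level in CPM with exact Poisson 95% intervals (left), summed CPM of the 8 endothelial markers with crosses for the 7 urothelial markers (middle), and Aqp1 as a percentage of the endothelial marker sum (right). Both chronic libraries lie lowest in the left and right panels, and the open symbol is healthy 2 with 15 cells.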

How the data were processed

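The authors deposited, per library, raw UMI counts per gene and cell from droplet 3′ libraries, aligned to mm10 with Cell Ranger (per the labels), and the gene annotation release is not given in the sources used here. Barcodes with more than 500 genes and under 10% mitochondrial UMIs were kept (55398 cells). Doublets were the cells with the highest Scrublet scores at 0.8% per 1000 cells (4.28% to 11.1% of a library) and were removed. Counts were integrated with Seurat 5.3.0 (SCTransform, sctransform 0.4.2, reciprocal PCA), clustered with scanpy 1.11.5 and leidenalg 0.10.2, and classes called from marker lists, with 91 transport genes, the 9 included, left out of the features. Pairs of libraries shared 0.673% to 2.04% of the smaller library's barcodes.

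UMI counts were summed per library and class (20 or more cells) and tested with edgeR 4.0.16 (quasi-likelihood, TMM factors 0.893 to 1.31, low counts filtered, Benjamini-Hochberg adjustment over all genes, R 4.3.3), with the library as a block between layers or cell types and no block between conditions. DESeq2 1.42.0 was an alternative, as were no TMM factors, no filter, each library left out, replicate numbers as a block, doublets kept, stricter cells (over 1000 genes, under 5% mitochondrial UMIs), clusters without integration, cycling cells kept in their layer and layers set by sub-cluster. A term for library-wide UMIs per barcode and a further rule for basal sub-clusters were chosen after seeing the data. The test was checked on simulated counts. Intervals and floors (3 counts) cover counting error only.

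The 9 genes, the lists and the markers were chosen with earlier results of these data known. Of the other listed genes (82 in all tables), those named had, per list and comparison of layers or types, the largest called rise and fall at a mean of 20 CPM or more, plus any called after injury, and other named ones are marked as chosen after seeing values. For likeness the 2 genes with the highest Pearson r over 13 classes were named. Some genes that these rules select are not reported here. Promoters are RefSeq, GRCm38.p6, with entries used for 7 of the 9 genes. Listed genes outside the common set were not analysed here.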

Additional observations from a re-analysis of the deposited data

Results flagged for a closer look

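The 15 endothelial cells of healthy 2 were too few for the fits, but they held Aqp1 at 1510 CPM, above the counting floor of 58.8 CPM for that sum and above both chronic libraries.

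Slc4a4, a sodium bicarbonate cotransporter, was the single listed gene called for a different response to acute injury between layers, with a superficial minus intermediate difference that was higher by 0.86 ± 0.18 on the log2 scale after injury (adjusted p = 0.04997, edgeR, 1 of 68 listed genes tested, against 0.315% of all genes). For superficial minus basal cells its change was 0.79 ± 0.27 (adjusted p = 0.22), and 0 listed genes were called in that contrast or for intermediate minus basal cells.

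Among classes fitted for injury with 20 or more cells in every library, at levels of 5 CPM or more in at least 1 library and setting urothelial layers against other classes or other classes against each other, 3 of the 9 genes had both chronic libraries above both healthy ones in 1 class and below them in another, and these differences between classes were not tested. Over all genes tested, 30.3% (basal), 36% (superficial), 40% (fibroblasts) and 35.6% (myofibroblasts) did not overlap between chronic and healthy libraries. Those shares are for each class alone. The share of all genes with opposite directions in different classes is not given here, so nothing is read from the count of 3. Atp1b1 was above healthy in fibroblasts (1.44) and myofibroblasts (1.74) and below it in basal cells (-0.42). The basal levels were 86.7 and 82.9 CPM in chronic against 137 and 91.2 CPM in healthy libraries. Layers were not set against each other in that count, and intermediate cells also lay above healthy for Atp1b1. They held 72.3 and 72.5 CPM in chronic against 54.2 and 68.6 CPM in healthy libraries. Aqp3 was above healthy in myofibroblasts (1.03) and below it in superficial cells (-1.01). Fxyd3 was above healthy in fibroblasts (1.62) and myofibroblasts (1.03) and below it in superficial cells (-0.24). Intermediate cells again lay above healthy, with Fxyd3 at 3063 and 2886 CPM in chronic against 2452 and 2814 CPM in healthy libraries. In macrophages, which were not fitted for injury, both chronic libraries also lay above both healthy ones for 2 of these genes. Fxyd3 was there at 832 and 844 against 430 and 477 CPM, and Atp1b1 at 16.1 and 23.4 against 3.12 and 8.73 CPM. These Atp1b1 levels rest on 5 and 8 UMIs in chronic and 2 and 5 UMIs in healthy libraries. The share of all genes that did not overlap in macrophages is not given here, so nothing is read from that count. The stromal classes of the chronic libraries also held the higher urothelial marker sums, 1982 to 4260 CPM against 498 to 1639 CPM in healthy libraries, and their part in these values was not tested.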

How the results depend on the processing

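The numbers of the 9 genes called moved under some settings. The share of all genes called under each setting is not given here, so nothing about the 9 genes is read from these counts. Between intermediate and basal cells 3 were called, but 0 without the library as a block and 5 with cycling cells kept in their layer. Between fibroblasts and myofibroblasts 1 was called with DESeq2 and 1 without the block, and 1 to 2 with 1 library left out (1 without healthy 1, acute 1, acute 2 or chronic 1). Between endothelial cells and fibroblasts 2 were called with DESeq2, 3 without TMM factors, 2 without the filter, 5 without integration, and 1 to 3 with 1 library left out (3 without chronic 2). Between endothelial and urothelial cells leaving out 1 library gave 5 to 9 (5 without acute 2). In chronic endothelial cells 2 were called with DESeq2, 2 without the filter, 2 without integration, 0 to 2 with 1 library left out (2 without acute 1), and 3 with a term for library-wide UMIs per barcode. For the change with injury in the difference between layers, 1 was called with DESeq2 in 3 of the 6 contrasts, 1 without the filter in 1, 1 with stricter cells in 4, 1 with the added rule for basal sub-clusters in 1, and 0 to 1 with 1 library left out in 5 (1 without healthy 2). With layers set by sub-cluster majority, which left no healthy library with 20 basal cells, injury in basal cells and the 4 contrasts of injury that involve basal cells could not be estimated, and Scnn1b (0.70) and Atp1b1 (0.91) from basal to intermediate cells and Atp1b1 from basal to superficial cells (0.57) turned positive. Basal cells under that rule came from a mostly cycling sub-cluster. The causes were not tested.

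Without thinning, the shares of cells with a UMI were 93.9% for Aqp3, 14.0% for Scnn1b, 29.3% for Atp1b1 and 34.6% for Fxyd4 in basal cells, 99.9% for Fxyd3 in intermediate cells, and 82.4% for Slc14a1 and 26.4% for Slc16a12 in superficial cells. The thinned shares were 83.5%, 7.60%, 16.5%, 20.4%, 99.2%, 38.8% and 11.1%.

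Of 246 values of called genes recomputed with 1 library left out, 235 kept their direction and call and 11 lost the call. Of 364 under the other settings, 345 kept both, 16 lost the call and 3 turned. Of 1187 values not called, 143 changed sign with 1 library left out, and of 1811 under the other settings 92 did. Some of these gained a call. The replicate numbers did not pair the libraries (correlation of deviations 0.33 for healthy and acute, -0.43 for healthy and chronic and -0.28 for acute and chronic, over 9417 genes), and with the replicate number as a block 0 of the 9 genes were called in each injury comparison. The 2 libraries a group, and 25 to 51 endothelial cells in 4 of the 5 libraries used, limit the precision of the injury comparisons.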
